A study of Homo sapiens with 9 samples.

Results

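The genes described here are 39 that make, modify, burn or store fatty acids, taken by symbol from the 24069 rows of an expression table for a lung cancer line and its drug-resistant derivatives. Each of the 39 symbols matched a row of its own, and none fell in a locus that combines several genes. The table covers LC-2/ad, a cell line from a lung adenocarcinoma with the fusion gene CCDC6-RET, as parental cells with no drug stated, and the ponatinib-resistant derivatives PR1 and PR2, which the labels place in 200 nM ponatinib. Ponatinib blocks several tyrosine kinases, RET among them. Each group has 3 RNA-seq libraries, lettered A, B and C, and PR1 and PR2 share the parental controls. Because the drug was present in the derivatives and is not stated for the parental cells, resistance and drug exposure cannot be told apart in any comparison with parental cells. Nothing in the labels tells whether A, B and C are separate cultures or whether PR1 and PR2 are clones, so p-values measure only the variation among these libraries, and that variation may be technical.

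Fatty acid synthesis starts from cytosolic acetyl-CoA, which ACLY makes from citrate and ACSS2 from acetate. Acetyl-CoA carboxylase turns it into malonyl-CoA and fatty acid synthase builds palmitate, which elongases lengthen and desaturases make unsaturated. Fatty acids are then joined to coenzyme A and either enter mitochondria through the carnitine shuttle (CPT1A, CPT2) to be oxidised, or are built into glycerolipids and kept in lipid droplets. Many genes of synthesis and desaturation are known targets of the SREBP transcription factors, and several of oxidation and droplet coating are known targets of the PPAR receptors. Alveolar type II cells, from which many lung adenocarcinomas are thought to arise, use this pathway to make surfactant lipid.

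Expression is given in FPKM, fragments scaled for transcript length and sequencing depth, a unit inferred from the authors' tools and the values since the header names none. FPKM keeps no absolute depth. An earlier look at these data set the 3 A libraries apart from the others, so counts and calls were also made without them. Read from the steps of low values, the libraries had 0.76 to 1 times the depth of parental A. The epithelial markers EPCAM, CDH1, KRT8, KRT18, KRT19 and CLDN4 were all present, with summed levels of 4338 to 4905 FPKM in parental cells, 3941 to 5359 in PR1 and 4200 to 5790 in PR2. KRT18 was low among them, at 2.34 to 8.17 FPKM. Of 6 adipocyte markers 1, the lipase gene LIPE, reached 1 FPKM in at least 3 libraries, and ADIPOQ was listed at 0 in every library. The adipocyte sum was 1.58 to 2.10 FPKM in parental cells, 1.01 to 1.34 in PR1 and 0.955 to 1.40 in PR2. Of 6 fibroblast markers 1 reached that level (COL1A1), and the fibroblast sum was 3.64 to 8.04 FPKM in parental cells, 5.98 to 8.43 in PR1 and 9.48 to 10.8 in PR2. Of the 5 blood markers with a row none did. The part of these markers in the results was not tested, and in bulk RNA fewer cells of a type and less RNA per cell cannot be told apart.

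Promoter sequence is shown for 4 desaturase genes, because this step held the 3 largest rises against parental cells (the values follow). SCD and SCD5 encode the 2 human stearoyl-CoA desaturases, and FADS1 and FADS3 belong to a cluster on chromosome 11 in which FADS1, FADS2 and FADS3 are consecutive protein-coding genes. Each line gives the 250 bases before the gene's start from RefSeq (GRCh38.p14), read 5′ to 3′ on the gene's strand. Capitals mark CCAAT (or ATTGG on the other strand), the core of the NF-Y site, and GGGCGG (or CCGCCC), a GC box bound by SP1. Both factors are known partners of SREBP.
SCD, chr10:100346983-100347232, plus strand: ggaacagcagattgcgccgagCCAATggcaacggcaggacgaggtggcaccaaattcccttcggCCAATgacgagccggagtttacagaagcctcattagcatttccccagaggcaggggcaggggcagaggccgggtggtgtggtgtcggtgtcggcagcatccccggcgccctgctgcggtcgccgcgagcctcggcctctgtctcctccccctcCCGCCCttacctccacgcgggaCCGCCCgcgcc
SCD5, chr4:82798797-82799046, minus strand: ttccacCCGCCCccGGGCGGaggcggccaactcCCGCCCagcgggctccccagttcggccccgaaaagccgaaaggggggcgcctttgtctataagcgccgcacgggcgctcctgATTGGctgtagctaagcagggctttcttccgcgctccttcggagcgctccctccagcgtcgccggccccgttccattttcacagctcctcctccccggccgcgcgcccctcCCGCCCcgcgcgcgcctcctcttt
FADS1, chr11:61817004-61817253, minus strand: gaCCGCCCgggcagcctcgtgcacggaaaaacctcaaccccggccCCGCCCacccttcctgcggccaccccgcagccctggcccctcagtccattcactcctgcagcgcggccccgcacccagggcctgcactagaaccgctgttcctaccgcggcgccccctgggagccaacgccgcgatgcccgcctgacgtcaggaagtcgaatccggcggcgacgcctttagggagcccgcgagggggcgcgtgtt
FADS3, chr11:61891546-61891795, minus strand: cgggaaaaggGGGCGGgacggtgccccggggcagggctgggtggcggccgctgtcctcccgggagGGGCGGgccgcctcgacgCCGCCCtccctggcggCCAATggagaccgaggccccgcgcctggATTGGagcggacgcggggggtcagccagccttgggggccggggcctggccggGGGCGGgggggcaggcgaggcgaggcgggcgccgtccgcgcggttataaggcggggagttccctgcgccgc

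The SCD window held 2 CCAAT boxes and 2 GC boxes, SCD5 1 and 4, FADS1 0 and 2, and FADS3 2 and 4. A further motif, TCACNCCAC (or GTGGNGTGA), a form of the sterol regulatory element, had no match in these 4 windows. RefSeq windows were found for 34 of the 39 genes, 54 windows in all since some genes have several starts. CCAAT was in 29.6% of the 54 windows and in 32% of all 35116 windows of the same length. GGGCGG was in 59.3% against 42.6%, and TCACNCCAC in 3 windows (ACSL1, FABP6 and PNPLA2), or 5.56% against 0.883%. These are matches of letters and not measured sites, and a missing match says nothing of other positions.

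Of the 39 genes, 36 reached 1 FPKM in at least 3 of the 9 libraries and were tested with limma among 12011 rows, and none of the 36 passed that filter through a single group. ACADL, an acyl-CoA dehydrogenase gene, the fatty acid transporter gene CD36 and THRSP, a regulator of lipogenesis, did not reach it. Their highest values were 0.0651, 0.0706 and 0.0832 FPKM. ACADL was listed at 0 in all 3 PR1 libraries and in PR2 B. In parental cells 1 member averaged 100 FPKM or more (SCD), 21 lay between 10 and 100, 13 between 1 and 10, and 4 under 1.

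In PR1 against parental cells 12 of the 36 members were called at an adjusted p under 0.05 (33.3%), 9 higher and 3 lower, where 15.5% of all rows tested were called, 7.56% higher and 7.98% lower. FADS1, ELOVL6, ACADM and MGLL were higher by 2-fold or more, and FABP5, FABP6 and PLIN2 lower (7 genes, where 6.67% of all rows were called at that size). The median log2 fold change was 0.29 over the members and 0.047 over all rows. In PR2 against parental cells 14 were called (38.9%), 9 higher and 5 lower, against 23.4% of all rows, 13.6% higher and 9.83% lower. FADS3 and SCD5 were higher by 2-fold or more, and CPT1A, FABP6 and ACSL1 lower (5 genes, against 9.52% of all rows). The medians were 0.301 and 0.03.

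The derivatives differed from each other in 16 members (44.4%), 6 higher and 10 lower in PR2, against 19.9% of all rows, 11.0% higher and 8.92% lower. At 2-fold or more 5 were higher and 6 lower, where 7.48% of all rows were called at that size. The medians were 0.108 and 0.004. These shares were not tested against the background. Over the 3 comparisons 22 members were called at least once and 14 in none. Against parental cells 5 were called in the same direction in both derivatives (FADS1, ELOVL6 and MGLL higher, FABP6 and PLIN2 lower), and ACSL5 in opposite directions. Another 6 passed in PR1 and not in PR2, and 8 in PR2 and not in PR1, which does not by itself show a difference between them. Since both comparisons use the same parental libraries, the difference between the derivatives is read from PR2 against PR1. Without the 3 A libraries 13, 15 and 13 members were called in the 3 comparisons, where 20.1%, 28.2% and 19.8% of all rows were. With the letter as a block 17 were called in PR1 against parental cells and 19 in PR2 against PR1, where 25.7% and 31.5% of all rows were.

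**Figure D1:**
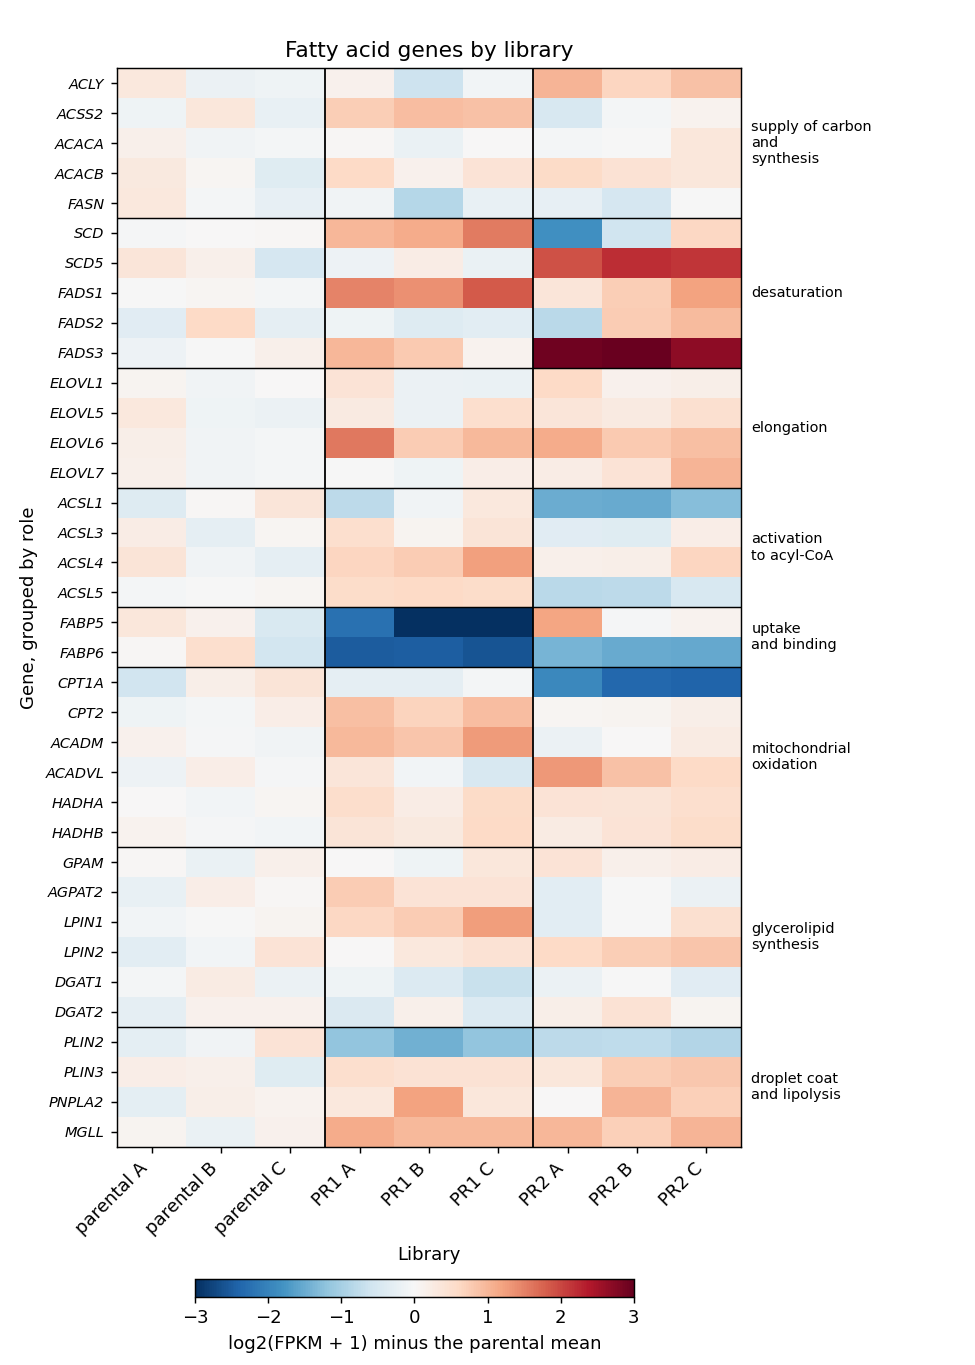
Level of the 36 tested genes in each of the 9 libraries, as log2(FPKM + 1) minus the gene's parental mean (red higher, blue lower, colour ends at 3), with genes grouped by role. FADS3 and SCD5 are high in the 3 PR2 libraries, CPT1A and ACSL1 are low there, and FABP5 and FABP6 are low in the 3 PR1 libraries.

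**Figure D2:**
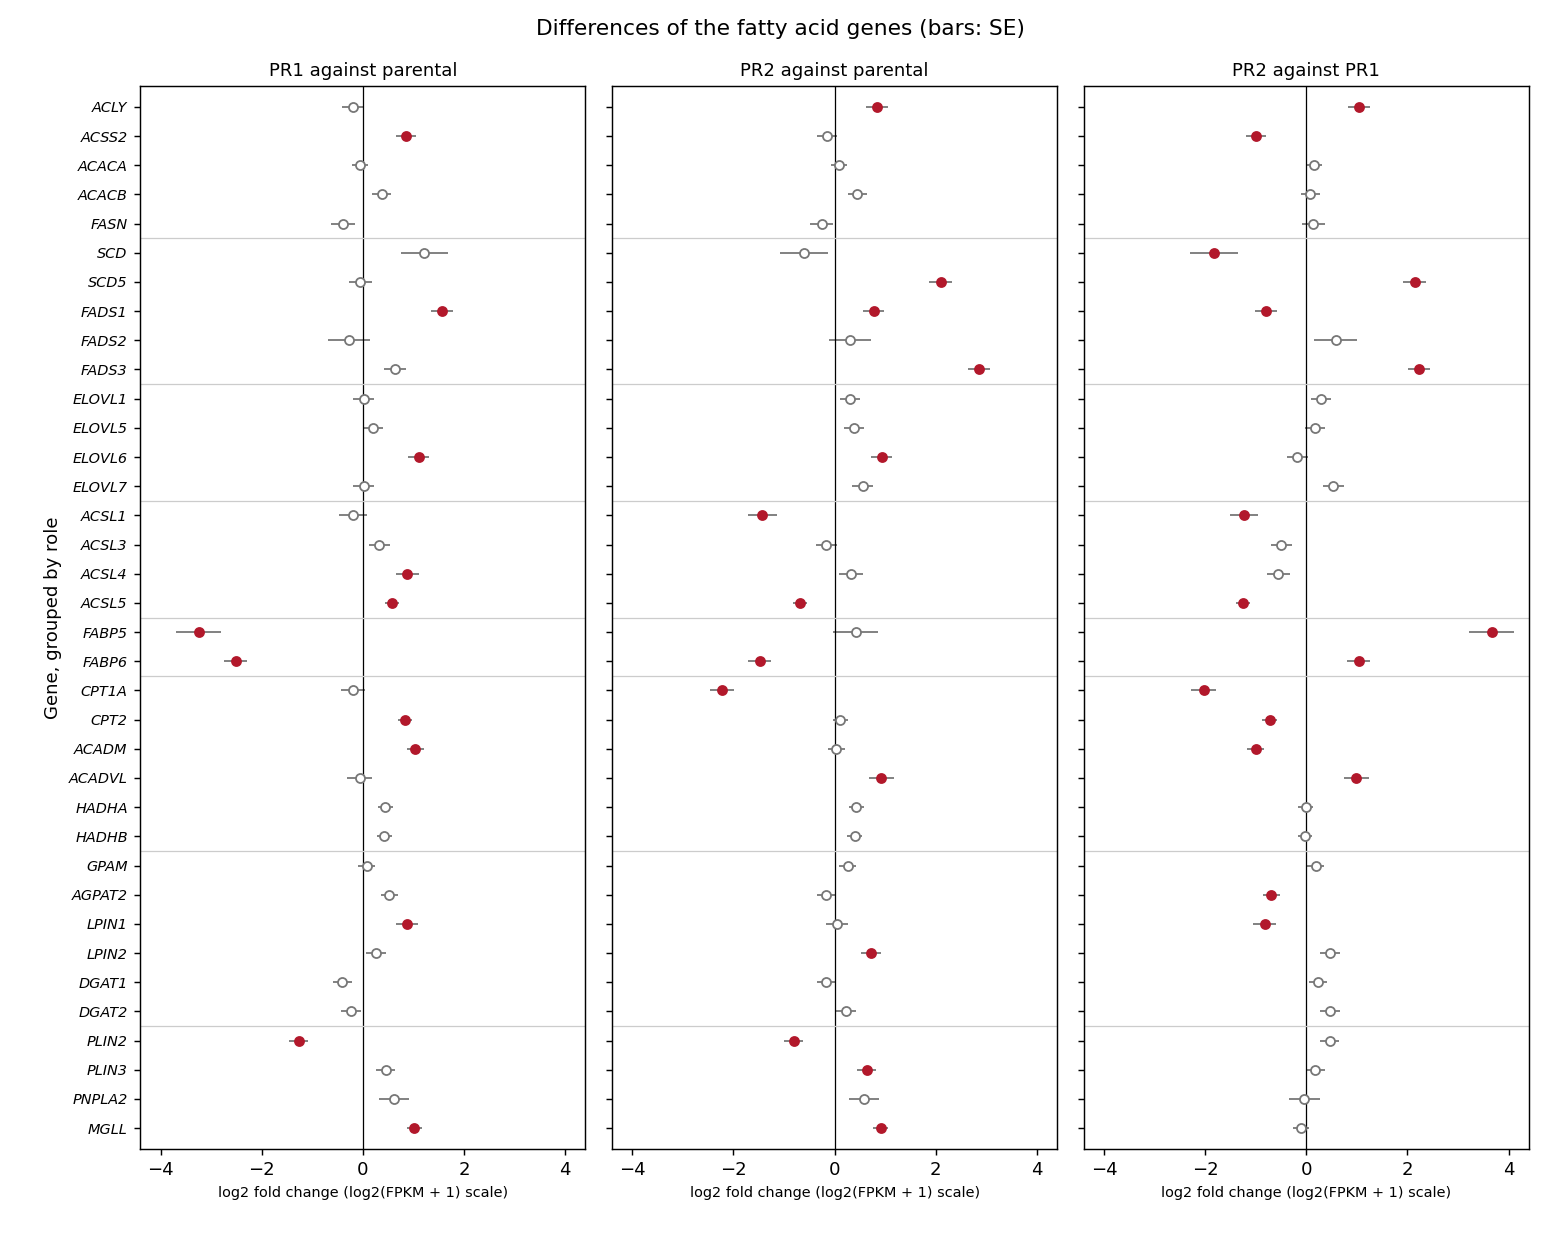
Log2 fold change of each tested gene in the 3 comparisons, with bars for the standard error, filled points where the limma adjusted p was under 0.05 and open points elsewhere. FABP5 has the largest difference between the derivatives (3.66), and the points of FADS1, ACSL5, CPT2 and ACADM lie right of 0 in PR1 against parental and left of 0 in PR2 against PR1.

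Of the genes that supply acetyl-CoA, ACLY rose in PR2 and ACSS2 in PR1, while the core synthesis enzymes passed in no comparison. ACLY, which splits citrate, stood at 78.4, 55.8 and 57.4 FPKM in parental libraries A, B and C, at 68.7, 40.8 and 59.3 in PR1, and at 128, 99.7 and 117 in PR2. All 3 PR2 values lay above every other library. ACLY rose in PR2 by a log2 of 0.85 ± 0.22 (SE) against parental cells (limma adjusted p = 0.0188) and was higher by 1.04 ± 0.22 than in PR1 (limma adjusted p = 0.00866). ACSS2, the cytosolic enzyme that uses acetate, showed another pattern, at 12.5, 17.5 and 11.6 FPKM in parental cells, 23.5, 26.9 and 26.1 in PR1, and 9.54, 12.9 and 14.7 in PR2. Only the PR1 values of ACSS2 stood apart. It rose in PR1 by 0.86 ± 0.20 (limma adjusted p = 0.0157) and was lower in PR2 than in PR1 by a log2 of −1.0 ± 0.20 (limma adjusted p = 0.00625). As a share of the summed FPKM of ACLY and ACSS2, ACSS2 took 13.7% to 23.8% in parental cells, 25.5% to 39.8% in PR1 and 6.94% to 11.5% in PR2. Leaving out parental B, parental C, PR2 C or PR2 A ended the ACLY call against parental cells (0.0514 to 0.0738, limma adjusted p). The ACSS2 call in PR1 was lost without parental C, PR1 B or PR1 C (0.0524 to 0.0609).

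FASN, fatty acid synthase, had a parental mean of 90.2 ± 18.2 FPKM (SD, n = 3), against 69.1 ± 17.9 in PR1 and 75.1 ± 13.03 in PR2, and its groups overlapped. Its log2 difference was −0.40 in PR1 (95% interval −0.92 to 0.12) and −0.26 in PR2 (−0.78 to 0.26), with limma adjusted p of 0.296 and 0.475. ACACA, the main acetyl-CoA carboxylase of synthesis, lay between 22.2 and 32.9 FPKM in all 9 libraries, with 95% intervals of −0.40 to 0.30 in PR1 and −0.26 to 0.45 in PR2. ACACB, the mitochondrial form whose product restrains CPT1, was low, at 0.335 to 1.58 FPKM. Its log2 differences of 0.38 (PR1) and 0.45 (PR2) missed the threshold (limma adjusted p = 0.215 and 0.111), and the PR2 difference passed without parental A (0.60, limma adjusted p = 0.0479). At a pseudocount of 0.1 they were 0.76 and 0.90 (0.208 and 0.113), and without parental C 0.20 and 0.27 (0.534 and 0.319).

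FADS3, SCD5 and FADS1 had the largest rises of the members against parental cells. FADS3, a desaturase of the FADS family, stood at 9.09, 9.97 and 11.4 FPKM in parental cells, 21.3, 18.2 and 11.1 in PR1, and 83.0, 86.3 and 70.6 in PR2. Every PR2 value exceeded every other, and the PR2 mean was 7.86 times the parental mean. FADS3 rose in PR2 by a log2 of 2.86 ± 0.22 against parental cells (limma adjusted p = 2.05e-05) and was higher by 2.22 ± 0.22 than in PR1 (limma adjusted p = 0.000152). The PR1 difference of 0.63 missed the threshold (limma adjusted p = 0.0807) and passed without PR1 C (0.89, limma adjusted p = 0.0146), the library that lay inside the parental range.

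SCD5, the stearoyl-CoA desaturase that rodents lack, was at 8.98, 7.62 and 4.54 FPKM in parental cells, 6.01, 8.09 and 5.77 in PR1, and 28.5, 35.4 and 33.7 in PR2. Parental and PR1 values overlapped, and the PR2 values lay above both. SCD5 rose in PR2 by 2.10 ± 0.22 (limma adjusted p = 0.000149) and was higher by 2.14 ± 0.22 than in PR1 (limma adjusted p = 2e-04). None of the alternatives tried ended the FADS3 or SCD5 calls in PR2.

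SCD, the widespread stearoyl-CoA desaturase that makes oleate, went the other way between the derivatives. It was at 107, 109 and 111 FPKM in parental cells, 218, 237 and 321 in PR1, and 30.0, 71.8 and 167 in PR2. Every PR1 value exceeded every other, and the PR2 values reached from far below the parental range to above it. SCD was lower in PR2 than in PR1 by a log2 of −1.82 ± 0.47 (limma adjusted p = 0.0229), a call lost without PR1 B, PR1 C or PR2 B (limma adjusted p of 0.0529 to 0.0809), with no filter on low values (0.0562) and with the libraries of these 2 groups alone (0.0538). Without PR2 A this difference was −1.21 (0.0263). Against parental cells the PR1 difference of 1.22 ± 0.47 missed the threshold (limma adjusted p = 0.114). This fit did not pair the letters, and the labels do not say what they stand for. With the letter as a block the difference passed (limma adjusted p = 0.0445), as it did without PR2 A or PR2 C (0.0164 and 0.0253). It also passed without the 3 A libraries (0.0437) and with these 2 groups alone (0.00393). The spread of the PR2 libraries enters the pooled error. The PR2 difference against parental cells was −0.61 (limma adjusted p = 0.398), −1.21 without PR2 C (0.0362) and 0.008 without PR2 A (0.991). SCD5 took 7.77%, 6.51% and 3.92% of the summed FPKM of SCD and SCD5 in parental cells, 2.68%, 3.30% and 1.76% in PR1, and 48.7%, 33.0% and 16.8% in PR2, so the share was highest in the PR2 libraries although it varied among them. SCD has a processed pseudogene in the human genome, with which the quantification may share reads.

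FADS1, the delta-5 desaturase of polyunsaturated fatty acids, was at 9.85, 10.3 and 9.46 FPKM in parental cells, 29.4, 27.2 and 37.8 in PR1, and 13.04, 17.1 and 24.0 in PR2. The 3 groups did not overlap. FADS1 rose by 1.57 ± 0.21 in PR1 (limma adjusted p = 0.00117) and by 0.77 ± 0.21 in PR2 (limma adjusted p = 0.0256), and PR2 was lower than PR1 by a log2 of −0.80 ± 0.21 (limma adjusted p = 0.0257). The PR2 rise was lost without any 1 of the parental libraries, PR2 B or PR2 C (limma adjusted p of 0.0516 to 0.0971), and the FADS1 difference between the derivatives without PR1 C, PR2 A or PR2 B (0.0665 to 0.093), without the 3 A libraries (0.0901) and with these 2 groups alone (0.0527).

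FADS2, the delta-6 desaturase that lies between FADS1 and FADS3, ranged from 2.48 to 10.6 FPKM and passed in no comparison. Its PR2 libraries stood at 2.48, 9.31 and 10.6. Without PR2 A its log2 difference was 0.85 against parental cells and 1.13 against PR1 (limma adjusted p = 0.0481 and 0.0179), and without the 3 A libraries the second was 1.21 (0.0234). FADS1 and FADS2 overlap in RefSeq, and no strand setting is stated, so reads in the overlap could go to either. Of the summed FPKM of FADS1, FADS2 and FADS3, FADS3 took 35.0% to 45.9% in parental cells, 21.0% to 38.5% in PR1 and 67.1% to 84.3% in PR2. FADS1 took 36.2% to 43.3%, 53.2% to 71.7% and 13.2% to 22.8%. FADS1 thus led the cluster in each PR1 library and FADS3 in each PR2 library.

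**Figure D3:**
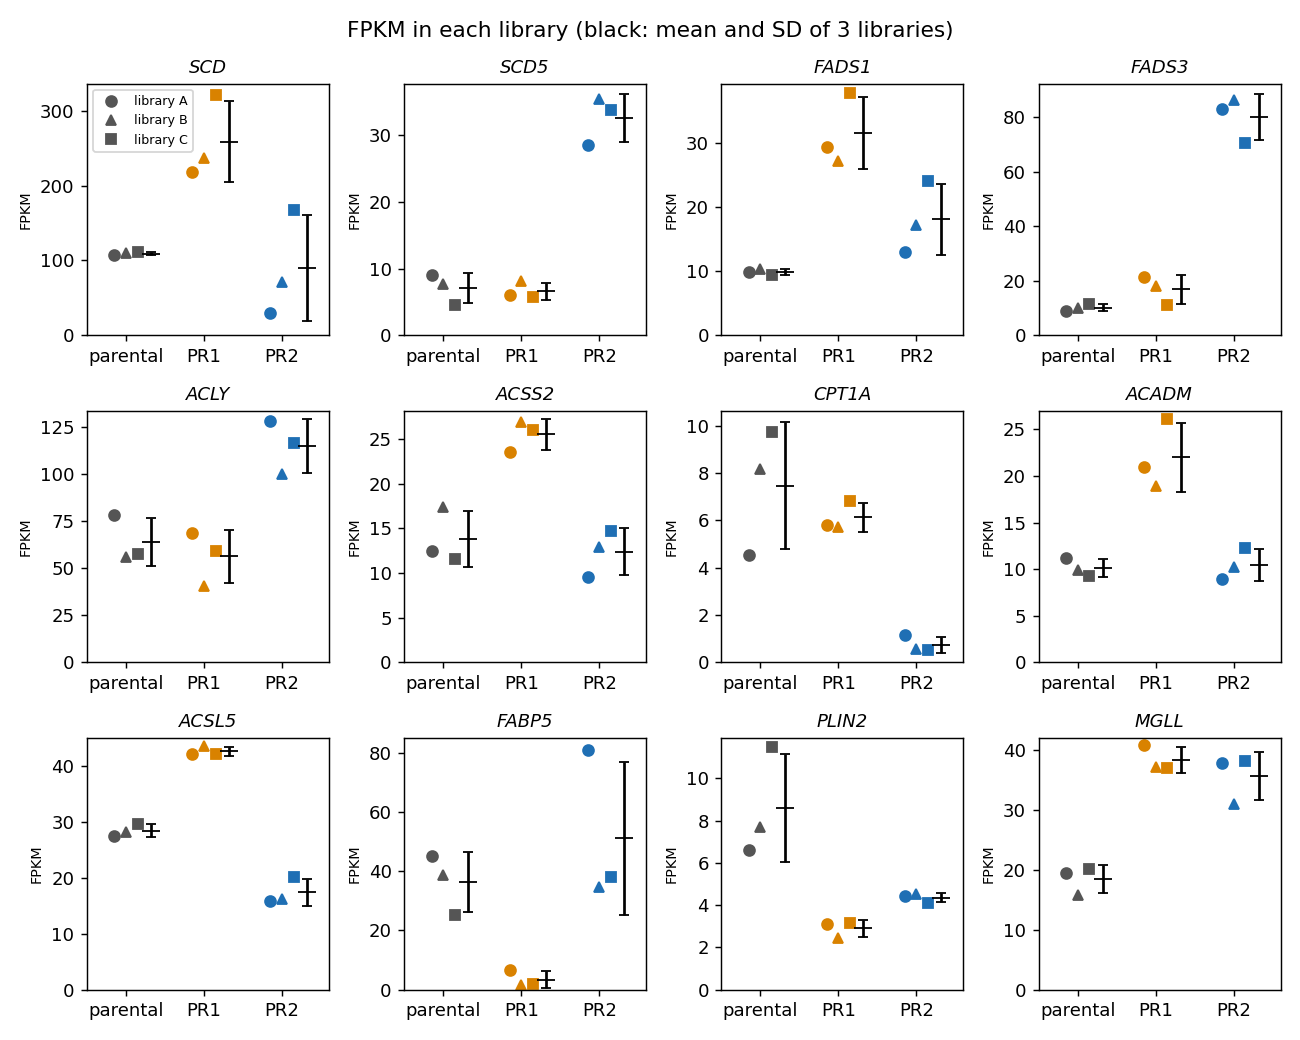
FPKM of 12 members in each library, with circles, triangles and squares for libraries A, B and C of parental cells, PR1 and PR2, and black bars for the mean and SD of 3 libraries. FADS3 and SCD5 sit apart in PR2, SCD is spread from 30.0 to 167 FPKM in PR2, and FABP5 stays under 7 FPKM in PR1.

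**Figure D4:**
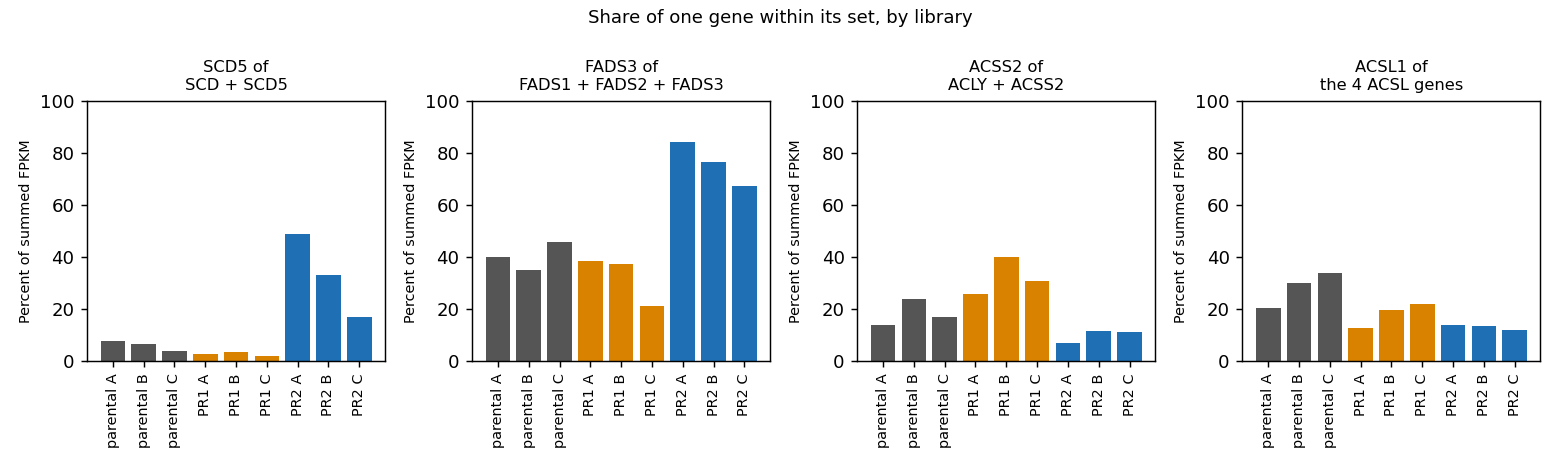
Share that 1 gene takes of the summed FPKM of its set, in percent, 1 bar per library (grey parental, orange PR1, blue PR2). SCD5 takes 16.8% to 48.7% of the 2 stearoyl-CoA desaturases in PR2 and at most 7.77% elsewhere, and FADS3 takes at least 67.1% of its cluster in PR2.

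Among the elongases, ELOVL6 rose in both derivatives. ELOVL6, which takes palmitate to stearate, was at 7.99, 6.40 and 6.70 FPKM in parental cells, 22.9, 12.6 and 14.7 in PR1, and 16.3, 12.8 and 13.9 in PR2. Every derivative library exceeded the parental ones. The rise was 1.11 ± 0.21 and 0.93 ± 0.21 (limma adjusted p = 0.00634 and 0.0101), and PR2 and PR1 differed by a log2 of −0.17 (95% interval −0.64 to 0.29, limma adjusted p = 0.609). The other elongase genes passed in no comparison. ELOVL1, for very long saturated chains, lay between 61.7 and 108 FPKM, and ELOVL5, for polyunsaturated chains, between 31.8 and 51.7. ELOVL7 stood at 3.74, 4.38 and 7.25 FPKM in PR2 against 2.77 to 3.54 in parental cells (log2 difference 0.55, limma adjusted p = 0.082), and its differences from parental cells and from PR1 passed without PR2 A (0.72 and 0.70, limma adjusted p = 0.0367 and 0.0456). The first also passed without the 3 A libraries (0.0423).

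Of the acyl-CoA synthetases, which activate long-chain fatty acids, 2 rose in PR1 and 2 fell in PR2. ACSL5, found on mitochondria and the endoplasmic reticulum, was at 27.4, 28.2 and 29.6 FPKM in parental cells, 42.1, 43.5 and 42.2 in PR1, and 15.9, 16.2 and 20.2 in PR2, with no overlap between the groups. It rose in PR1 by 0.57 ± 0.14 (limma adjusted p = 0.0201) and fell in PR2, with a log2 fold change of −0.68 (SE 0.14, limma adjusted p = 0.00562), and PR2 was lower than PR1 by a log2 of −1.25 ± 0.14 (limma adjusted p = 0.000257). The ACSL5 rise in PR1 was lost without parental B, PR1 B or PR1 C (limma adjusted p of 0.0581 to 0.0641), although its value stayed at 0.55 to 0.58.

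ACSL1, often linked to storage and oxidation, was at 20.9, 28.5 and 36.0 FPKM in parental cells, 15.6, 26.0 and 35.0 in PR1, and 9.30, 9.02 and 10.9 in PR2. It fell in PR2, with a log2 fold change of −1.43 (SE 0.28, limma adjusted p = 0.00481), and PR2 was also lower than PR1, by a log2 of −1.24 ± 0.28 (limma adjusted p = 0.0122). In parental cells and PR1 the A library of ACSL1 was the lowest and the C library the highest. ACSL4, which prefers arachidonate, was at 29.8, 21.1 and 18.5 FPKM in parental cells, 36.0, 39.1 and 54.5 in PR1, and 25.2, 25.7 and 36.2 in PR2. It rose in PR1 by 0.88 ± 0.23 (limma adjusted p = 0.029), a call lost without parental B, parental C, PR1 B or PR1 C (limma adjusted p of 0.0552 to 0.107). ACSL3, a lipid droplet enzyme, ranged from 16.7 to 31.3 FPKM, and its log2 difference of −0.49 between the derivatives (limma adjusted p = 0.122) passed with the letter as a block (0.04). The 4 genes together summed to 95.7 to 107 FPKM in parental cells, 125 to 161 in PR1 and 67.4 to 92.5 in PR2. ACSL4 took the largest share in each PR2 library, at 37.4% to 39.1%, while ACSL1 took 11.8% to 13.8%.

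FABP5 and FABP6 had the largest falls of the members in PR1. FABP5, the epidermal fatty acid binding protein, was at 45.1, 38.7 and 25.3 FPKM in parental cells, 6.66, 1.44 and 1.99 in PR1, and 81.0, 34.6 and 37.9 in PR2. All 3 PR1 values lay below every other, while parental and PR2 values overlapped. It fell in PR1, with a log2 fold change of −3.25 (SE 0.44, limma adjusted p = 0.00123) and was higher in PR2 than in PR1 by 3.66 ± 0.44 (limma adjusted p = 0.00047). Its PR2 difference from parental cells was 0.41 (95% interval −0.57 to 1.40, limma adjusted p = 0.549). FABP5 has several processed pseudogenes whose reads the quantification may share.

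FABP6, the ileal bile acid binding protein, was at 8.06, 11.5 and 4.99 FPKM in parental cells, 0.566, 0.575 and 0.463 in PR1, and 2.32, 2.07 and 2.05 in PR2. The 3 groups did not overlap. It fell in both derivatives, with log2 fold changes of −2.52 (PR1) and −1.48 (PR2) (SE 0.23 for both, limma adjusted p = 0.000109 and 0.00122). PR2 was higher than PR1 by 1.03 ± 0.23 (limma adjusted p = 0.0108), a call lost when the 3 A libraries were left out (0.0626), and at a pseudocount of 0.1 this difference was 1.82.

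Of 6 tested genes of mitochondrial oxidation, CPT2 and ACADM rose in PR1, and in PR2 CPT1A fell and ACADVL rose. CPT1A, which attaches carnitine and controls the entry of long-chain fatty acids into mitochondria, was at 4.52, 8.19 and 9.72 FPKM in parental cells, 5.81, 5.73 and 6.84 in PR1, and 1.15, 0.589 and 0.536 in PR2. Parental and PR1 values overlapped, and the PR2 values lay below both. CPT1A fell in PR2, with a log2 fold change of −2.23 (SE 0.24, limma adjusted p = 0.000156) and was lower than in PR1 by a log2 of −2.03 ± 0.24 (limma adjusted p = 0.000412). None of the alternatives tried ended either CPT1A call. Of the other CPT1 genes, CPT1B lies in a combined row with CHKB, and CPT1C stayed below the filter, at 1.82 FPKM at most. CPT1C averaged 0.697 FPKM in parental cells, 0.136 in PR1 and 1.13 in PR2. Its PR2 values of 0.626, 1.82 and 0.956 FPKM were of the same order as those of CPT1A there. CPT1C was not tested.

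CPT2, which removes carnitine inside mitochondria, was at 8.38, 8.80 and 10.8 FPKM in parental cells, 18.3, 15.2 and 18.5 in PR1, and 9.76, 9.94 and 10.6 in PR2. CPT2 rose in PR1 by 0.83 ± 0.15 (limma adjusted p = 0.00418) and was lower in PR2 than in PR1 by a log2 of −0.72 ± 0.15 (limma adjusted p = 0.00736). The FPKM ratio of CPT1A to CPT2 was 0.540 to 0.931 in parental cells, 0.318 to 0.376 in PR1 and 0.0507 to 0.118 in PR2, with no overlap between the groups. ACADM, the medium-chain acyl-CoA dehydrogenase, followed the CPT2 pattern, at 11.2, 9.90 and 9.31 FPKM in parental cells, 20.9, 18.9 and 26.1 in PR1, and 8.91, 10.2 and 12.2 in PR2. ACADM rose in PR1 by 1.04 ± 0.17 (limma adjusted p = 0.00284) and was lower in PR2 than in PR1 by a log2 of −1.0 ± 0.17 (limma adjusted p = 0.00292). The CPT2 and ACADM calls held under every alternative tried.

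ACADVL, the very long-chain dehydrogenase, was high in PR2 instead, at 43.7, 55.5 and 47.1 FPKM in parental cells, 62.7, 45.9 and 34.5 in PR1, and 121, 90.6 and 73.4 in PR2. It rose in PR2 by 0.92 ± 0.24 (limma adjusted p = 0.0202) and was higher by 0.99 ± 0.24 than in PR1 (limma adjusted p = 0.0177). The first ACADVL call was lost without parental A, parental C, PR2 A or PR2 B (limma adjusted p of 0.0507 to 0.0605) and the second without PR1 B or PR1 C (0.0511 and 0.0654). HADHA and HADHB, the subunits of the trifunctional protein that completes the later steps, kept a FPKM ratio of 1.01 to 1.19 in all 9 libraries. HADHA had a parental mean of 47.1 ± 2.36 FPKM (SD, n = 3), against 64.7 ± 8.16 in PR1 and 63.8 ± 2.73 in PR2, and HADHB 43.8 ± 3.04, 59.4 ± 6.49 and 58.2 ± 5.98. Every derivative library exceeded the parental ones for both genes, but the log2 differences of 0.40 to 0.45 missed the threshold (limma adjusted p of 0.0511 to 0.0776). In PR1 against parental cells both passed with the letter as a block (HADHA 0.0245 and HADHB 0.0465), and HADHA passed without PR1 B (0.0489). In PR2 against parental cells HADHA passed at a pseudocount of 0.1 (0.0499), after quantile normalization (0.0271) and without PR1 B (0.05), and HADHB without the 3 A libraries (0.0451). With no filter on low values both genes passed in both derivatives (0.0275 to 0.0493). Their 300-base RefSeq promoter windows lie on opposite strands and overlap by 194 bases.

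Of 6 genes of glycerolipid synthesis, LPIN1 rose in PR1 and LPIN2 in PR2. These lipins are phosphatidate phosphatases that make diacylglycerol. LPIN1 was at 6.59, 6.85 and 7.503 FPKM in parental cells, 11.2, 12.4 and 17.9 in PR1, and 5.44, 6.85 and 10.1 in PR2. LPIN1 rose in PR1 by 0.87 ± 0.22 (limma adjusted p = 0.0262) and was lower in PR2 than in PR1 by a log2 of −0.82 ± 0.22 (limma adjusted p = 0.0275). The rise was lost without any of 5 single libraries (all but PR1 A of that comparison, limma adjusted p of 0.0511 to 0.0948), and the LPIN1 difference between the derivatives without PR1 B, PR1 C, PR2 A or PR2 B (0.0536 to 0.0959), without the 3 A libraries (0.0604), with no filter (0.0531) and with these 2 groups alone (0.0558). LPIN2 was at 2.80, 3.43 and 5.23 FPKM in parental cells, 3.75, 4.83 and 5.42 in PR1, and 6.15, 6.83 and 7.37 in PR2. It rose in PR2 by 0.72 ± 0.20 (limma adjusted p = 0.0258), a call lost without parental A, parental B, PR2 B or PR2 C (limma adjusted p of 0.069 to 0.0931), without the 3 A libraries (0.057) and with median centring (0.0501). The LPIN2 difference of 0.47 between the derivatives (limma adjusted p = 0.129) passed with the letter as a block (0.027).

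AGPAT2, which makes phosphatidate, was at 52.2, 70.2 and 62.4 FPKM in parental cells, 104, 81.2 and 82.0 in PR1, and 48.7, 60.7 and 53.8 in PR2. It was lower in PR2 than in PR1 by a log2 of −0.69 ± 0.17 (limma adjusted p = 0.0175), a call lost without PR1 A or PR2 C (limma adjusted p = 0.0511 and 0.0616) and without the 3 A libraries (0.0505). Its PR1 difference of 0.52 from parental cells (limma adjusted p = 0.0639) passed with the letter as a block (0.0466) and after quantile normalization (0.0401). GPAM, which starts glycerolipid synthesis, and the diacylglycerol acyltransferases DGAT1 and DGAT2, which finish triglyceride, passed in no comparison. GPAM lay between 1.39 and 2.68 FPKM, DGAT1 between 9.10 and 17.9, and DGAT2 between 3.40 and 6.93. DGAT2 differed between the derivatives by 0.46 (limma adjusted p = 0.131), which passed with the block (0.0392).

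Of the droplet and lipolysis genes, PLIN2 fell and MGLL rose in both derivatives. PLIN2, the main droplet coat protein of non-adipose cells, was at 6.59, 7.71 and 11.5 FPKM in parental cells, 3.10, 2.45 and 3.13 in PR1, and 4.43, 4.50 and 4.11 in PR2. The 3 groups did not overlap. The log2 fold change of PLIN2 was −1.27 in PR1 and −0.81 in PR2 (SE 0.19 for both, limma adjusted p = 0.00177 and 0.0113). PR2 differed from PR1 by 0.46 (limma adjusted p = 0.111), which passed without parental C (limma adjusted p = 0.0456). MGLL, the lipase that completes triglyceride breakdown, was at 19.4, 15.8 and 20.2 FPKM in parental cells, 40.8, 37.1 and 37.1 in PR1, and 37.9, 31.0 and 38.2 in PR2. Every derivative library exceeded the parental ones. MGLL rose by 1.02 ± 0.15 and 0.92 ± 0.15 in them (PR1 and PR2, limma adjusted p = 0.00178 and 0.00183), and the derivatives differed by a log2 of −0.10 (95% interval −0.44 to 0.23, limma adjusted p = 0.679). The PLIN2 and MGLL calls against parental cells held under every alternative tried.

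PLIN3, a ubiquitous coat protein, was at 51.7, 50.5 and 35.1 FPKM in parental cells, 63.8, 61.5 and 61.2 in PR1, and 57.6, 75.9 and 79.8 in PR2. It rose in PR2 by 0.63 ± 0.19 (limma adjusted p = 0.0344). The PLIN3 call was lost without parental B, parental C, PR1 C, PR2 B or PR2 C (limma adjusted p of 0.0513 to 0.13), with median centring (0.08) and with the libraries of these 2 groups alone (0.0661). PNPLA2, the lipase that starts triglyceride breakdown, had a parental mean of 43.5 ± 7.30 FPKM (SD, n = 3), against 69.7 ± 26.4 in PR1 and 67.6 ± 22.7 in PR2. Its B library was the highest in each group, at 49.0, 100 and 88.4 FPKM. The PNPLA2 difference of 0.62 in PR1 (limma adjusted p = 0.204) passed with the letter as a block (0.0329).

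Further genes of the pathway, 111 with a row of their own, gave 82 tested. In PR1 12 of the 82 were called (14.6%, where 15.5% of all rows were), 6 higher and 6 lower, and in PR2 21 were (25.6%, against 23.4%), 10 higher and 11 lower. Against parental cells these genes were thus called at shares near those of all rows. Between the derivatives 28 were called (34.1%, against 19.9%), 10 higher and 18 lower in PR2. The counts of each list below stand against the same 3 shares of all rows, and with 7 to 16 genes a list none was tested against them. The median log2 fold changes over all 82 genes were 0.104, −0.093 and −0.175, against 0.047, 0.03 and 0.004 over all rows.

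Of 16 tested regulators, 5 were called in PR1 (31.2%, 3 higher and 2 lower), 6 in PR2 (37.5%, 2 higher and 4 lower) and 7 between the derivatives (43.8%, 3 higher and 4 lower in PR2). SREBF1, whose SREBP-1 product drives synthesis genes, was at 28.2, 36.9 and 36.0 FPKM in parental cells, 45.3, 70.6 and 80.7 in PR1, and 13.4, 31.4 and 38.7 in PR2. It was lower in PR2 than in PR1 by a log2 of −1.29 ± 0.35 (limma adjusted p = 0.0279), a call lost without PR1 B or PR1 C (limma adjusted p = 0.0805 and 0.098). Without PR2 A it was −0.85 (0.0421). With no filter (0.0608) and with these 2 groups alone (0.0567) the call was lost too. Its PR1 difference of 0.91 (limma adjusted p = 0.112) passed with the letter as a block (0.0115), without PR2 A (0.022), without the 3 A libraries (0.00601) and with these 2 groups alone (0.0342). The nuclear receptor gene PPARD rose in PR2 from 18.8 to 41.9 FPKM on average (1.09 ± 0.19, limma adjusted p = 0.00274) and was higher than in PR1 by 1.14 (limma adjusted p = 0.00295). PPARG went the other way, with means of 25.7 FPKM in parental cells, 36.1 in PR1 and 15.7 in PR2. Its PR2 log2 differences were −0.71 from parental cells and −1.15 from PR1 (limma adjusted p = 0.0458 and 0.00641). PPARA rose in PR1 by 0.55 (limma adjusted p = 0.0441). The PPARG and PPARA calls were not followed through the alternatives. MLXIPL, which encodes the glucose-sensing factor ChREBP, fell in both derivatives, with log2 fold changes of −1.0 and −1.11 (limma adjusted p = 0.0466 and 0.0224). The PR1 call of MLXIPL was lost without parental B, parental C, PR1 A, PR1 C, PR2 B or PR2 C (0.0598 to 0.161), and with no filter (0.0821), median centring (0.0547) or the 2 groups alone (0.057). The PR2 call was lost without parental B, parental C or PR2 A (0.0634 to 0.088). At a pseudocount of 0.1 these values were −1.62 (limma adjusted p = 0.0647) and −1.81 (0.0324). NR1H3, the liver X receptor alpha gene, averaged 8.07 FPKM in parental cells, 13.4 in PR1 and 5.99 in PR2. It was lower in PR2 than in PR1 by a log2 of −1.03 (limma adjusted p = 0.00272), a call held under every alternative tried. Its rise in PR1 was 0.67 (limma adjusted p = 0.0262). That call was lost without parental A, PR1 A or PR1 B (limma adjusted p of 0.0664 to 0.0865) and without the 3 A libraries (0.106). It was also lost with quantile normalization, median centring or these 2 groups alone (0.0535 to 0.0563).

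Of 10 tested genes of other synthesis and elongation steps, 1 rose in PR1 (10%), 1 rose in PR2 (10%), and 1 was higher and 2 were lower in PR2 than in PR1 (30%). ACSS1, the mitochondrial counterpart of ACSS2, rose from a parental 2.33 ± 0.56 FPKM (SD, n = 3) to 8.25 ± 2.59 in PR1 and was at 2.08 ± 0.54 in PR2 (1.45 in PR1, and −1.57 for PR2 against PR1, limma adjusted p = 0.00213 and 0.00114). PTPLA, a dehydratase gene of the elongation cycle, rose in PR2 by 1.58 (limma adjusted p = 0.00149). Its PR1 difference of 0.78 (limma adjusted p = 0.0625) passed with the letter as a block (0.0171). It was higher in PR2 than in PR1 by 0.80 (limma adjusted p = 0.0476), a call lost without any single library except PR1 A (0.0601 to 0.155) and under 6 other settings (0.0515 to 0.0941).

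Of 7 tested genes of other uptake, activation and binding, 1 fell in PR1 (14.3%), none passed in PR2 (2 at an unadjusted p under 0.05 in limma), and 1 was higher and 1 lower in PR2 than in PR1 (28.6%). VLDLR, a lipoprotein receptor gene, averaged 1.57 FPKM in parental cells, 0.0619 in PR1 and 0.857 in PR2. It had a log2 fold change of −1.25 in PR1 (limma adjusted p = 0.00351), which was −3.33 at a pseudocount of 0.1, and was higher in PR2 than in PR1 by 0.78 (limma adjusted p = 0.028). The second VLDLR call was lost without any 1 of the PR1 libraries, PR2 C or PR2 A (0.0573 to 0.0731), without the 3 A libraries (0.0504) and after quantile normalization (0.0576), and its value was 2.48 at a pseudocount of 0.1. SLC27A2, a very long-chain acyl-CoA synthetase, was lower in PR2 than in PR1 by a log2 of −0.68 (limma adjusted p = 0.013), a call lost without PR1 C or PR2 C (0.0517 and 0.0645).

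Of 15 tested genes of other mitochondrial oxidation steps, 1 rose and 2 fell in PR1 (20%), 1 rose and 3 fell in PR2 (26.7%), and 2 were higher and 5 lower in PR2 than in PR1 (46.7%). ETFB, a subunit of the flavoprotein that takes electrons from acyl-CoA dehydrogenases, averaged 136 FPKM in parental cells, 112 in PR1 and 67.3 in PR2, and fell in PR2, with a log2 fold change of −0.99 (limma adjusted p = 0.00665). ECHS1, the short-chain enoyl-CoA hydratase, averaged 109, 154 and 85.8 FPKM and was lower in PR2 than in PR1 by a log2 of −0.82 (limma adjusted p = 0.00423). The ECHS1 difference of 0.49 in PR1 (limma adjusted p = 0.0529) passed with the letter as a block (0.0253). DECR1, which removes double bonds for oxidation, averaged 27.9 FPKM in parental cells, 16.7 in PR1 and 27.5 in PR2. It fell in PR1, with a log2 fold change of −0.70 (limma adjusted p = 0.0108), a call held under every alternative tried. Its PR2 difference from parental cells was −0.02 (limma adjusted p = 0.933). PR2 was higher than PR1 by 0.68 (limma adjusted p = 0.0104), a call lost without PR2 B or PR2 C (0.0515 and 0.0521). ACOT13, a thioesterase gene, fell in PR1, with a log2 fold change of −0.79 (limma adjusted p = 0.00228). HADH rose in PR1 by 0.52 (limma adjusted p = 0.041) and ECI2 in PR2 by 0.73 (limma adjusted p = 0.0343). The HADH call was lost without any 1 of the parental libraries, PR1 B, PR1 C, PR2 B or PR2 C (0.0571 to 0.126), and the ECI2 call without parental B, parental C or any 1 of the PR2 libraries (0.0523 to 0.0899). Both were also lost with median centring (0.0913 and 0.0669) and with the 2 groups alone (0.0755 and 0.0576), HADH after quantile normalization (0.0616) and ECI2 with no filter (0.0515). The ECI2 difference of 0.66 between the derivatives (limma adjusted p = 0.0545) passed with the letter as a block (0.0107). Without parental C the ECI2 rise in PR2 against parental cells was 0.47.

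Of 11 tested peroxisomal genes none passed in PR1 (3 at an unadjusted p under 0.05 in limma), 1 rose and 1 fell in PR2 (18.2%), and 1 was higher and 2 were lower in PR2 than in PR1 (27.3%). ACOX2, an oxidase of branched chains and bile acid precursors, averaged 2.99 FPKM in parental cells, 2.19 in PR1 and 0.154 in PR2. It fell in PR2, with a log2 fold change of −1.78 (limma adjusted p = 0.000101) and was lower than in PR1 by a log2 of −1.46 (limma adjusted p = 0.000472). These were −3.67 and −3.25 at a pseudocount of 0.1. EHHADH, the bifunctional enzyme, rose in PR2 by 0.75 (limma adjusted p = 0.00404) and was higher than in PR1 by 0.58 (limma adjusted p = 0.0172), the latter lost without PR1 B, PR1 C or PR2 C (0.0547 to 0.0713).

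Of 12 tested genes of other glycerolipid steps, 1 rose in PR1 (8.33%), 4 rose and 1 fell in PR2 (41.7%), and 2 were higher and 2 lower in PR2 than in PR1 (33.3%). LPCAT1, a lysophospholipid acyltransferase that makes surfactant phosphatidylcholine, was at 91.2, 75.7 and 59.5 FPKM in parental cells, 253, 264 and 252 in PR1, and 90.4, 131 and 128 in PR2. LPCAT1 rose in PR1 by 1.77 ± 0.20 (limma adjusted p = 0.000357) and was lower in PR2 than in PR1 by a log2 of −1.15 ± 0.20 (limma adjusted p = 0.00331). It was also called higher in PR2 than in parental cells, by 0.62 (limma adjusted p = 0.0458). That call was lost under 11 of 17 alternatives (limma adjusted p of up to 0.156). LPCAT3, which adds polyunsaturated chains, had a log2 fold change of −0.96 in PR2, and LPCAT2, a close relative of LPCAT1, rose there by 1.27 (limma adjusted p = 0.00101 and 0.0044). AGPAT6, an acyltransferase gene of the first glycerolipid step, was higher in PR2 than in PR1 by 0.75 (limma adjusted p = 0.00539).

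Of 11 tested genes of other droplet and lipolysis functions, 1 fell in PR1 (9.09%), 1 rose and 2 fell in PR2 (27.3%), and 2 were lower in PR2 than in PR1 (18.2%). G0S2, an inhibitor of the lipase encoded by PNPLA2, averaged 3.18 FPKM in parental cells, 3.58 in PR1 and 1.11 in PR2. It fell in PR2, with a log2 fold change of −1.02 (limma adjusted p = 0.0188), a call lost without parental C (limma adjusted p = 0.0681), and was lower in PR2 than in PR1 by a log2 of −1.11 (limma adjusted p = 0.0155), or −0.60 without the 3 A libraries (0.0455). At a pseudocount of 0.1 these values were −1.57 and −1.67. SOAT1, which stores cholesterol as esters, rose in PR2 by 0.93 (limma adjusted p = 0.0151), a call lost without parental B, parental C or PR2 C (0.0538 to 0.0622). The SOAT1 difference of 0.73 in PR1 (limma adjusted p = 0.0556) passed when the A libraries were left out (0.0235) and in the blocked fit (0.0129). FAF2, a droplet and endoplasmic reticulum protein, fell in PR1 (−0.57, limma adjusted p = 0.05, under the threshold before rounding). That call was lost without each library in turn except PR1 C (limma adjusted p of 0.0565 to 0.132), without the 3 A libraries (−0.38, 0.178), and with no filter, the filter at 5 FPKM, quantile normalization or the 2 groups alone (0.0516 to 0.0944).

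The highest library of a group exceeded the lowest by a median of 1.40 times in parental cells, 1.42 in PR1 and 1.32 in PR2, and by more than 2-fold for 4, 2 and 5 of the 36 tested members. The widest spreads were those of SCD in PR2 (5.59 times), FABP5 in PR1 (4.61) and FADS2 in PR2 (4.28). In PR2 the A library was the lowest and the C library the highest for 14 of the 36 members, among them SCD, FADS1, FADS2, ACADM and LPIN1, while 9 were highest in A, among them ACLY and ELOVL6. SCD results without PR2 A and without PR2 C are given above. Beyond these, the part of this spread in the SCD result was not tested.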

How the data were processed

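RNA-seq values of 9 libraries (3 parental LC-2/ad, 3 PR1, 3 PR2) were used, grouped by title. Per the submitters' processing notes the tools were TopHat2 2.0.14, Cufflinks 2.2.1 and Cuffdiff 2.2.1, with the builds GRCh37 and hg19. No annotation is named in those notes. The deposited table was read as the authors' FPKM values, 1 column per library, a unit inferred because the header names none. A value of 0 can be a failed estimate, so such genes are called listed at 0. No absolute depth is known.

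Values were analysed as log2(FPKM + 1), which understates changes of low genes, in R 4.3.3 with limma 3.58.1. Rows that reached 1 FPKM in 3 or more libraries (12011 of 24069) were fitted with 1 mean per group over all 9 libraries and an intensity trend, two-sided, with Benjamini-Hochberg adjustment over all rows, and the script was tested on simulated data. Calls had an adjusted p under 0.05.

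Libraries of the same letter deviated together in PR1 and parental cells (correlations across genes of 0.311, 0.477 and 0.163). They also did so in PR2 and PR1 (0.527, 0.544 and 0.254). Letters can be read as pairs in these comparisons, but the calls come from the fit without pairs. The letter as a block is given only as an alternative. In PR2 and parental cells the C libraries did not deviate together (0.014), and letters were not read as pairs. The 39 members, the other lists and the choice to leave out the A libraries were made with earlier results of these data known. Library values are given for members called at least once or averaging 100 FPKM in a group, and other pathway genes by the largest called rise and fall per list and comparison. SREBF1 per library, LPCAT1 per library, the shares within gene sets, PPARG, PPARA and NR1H2 were chosen after their values were seen. So were further comparisons of the named genes. The printed promoters and the motifs searched in them were chosen likewise. Promoter sequences are from RefSeq tables of GRCh38.p14, a later build than the table's.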

Additional observations from a re-analysis of the deposited data

How the results depend on the processing

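The number of members called stayed within 1.5 times of 12, 14 and 16 (PR1 against parental, PR2 against parental, PR2 against PR1) under all 17 alternatives: a pseudocount of 0.1, no filter on low values, a filter at 5 FPKM, quantile normalization, median centring, the replicate block, the libraries of 2 groups alone, each library left out, and all 3 A libraries left out. Leaving out single libraries gave 9 to 13, 10 to 15 and 12 to 17. With the replicate block 17, 19 and 19 members were called. In PR2 against parental cells letters were not taken as pairs, and 34.2% of all rows were called with the block. There it added ACACB, ELOVL7, HADHA, HADHB and PNPLA2 (limma adjusted p of 0.0213 to 0.0487). ACACB, ELOVL7, FABP6 and GPAM did not pass the filter at 5 FPKM and have 16 alternatives. Under every alternative available for the gene, 8 of the 12, 9 of the 14 and 10 of the 16 calls held, and no called member changed sign. Among differences that missed the threshold, 9 of 24, 7 of 22 and 7 of 20 changed sign under at least 1 alternative. Median centring moved the median of all rows in PR2 against parental cells from 0.03 to −0.074. With 3 libraries a group and no absolute depth, small differences of low genes such as ACACB and GPAM are poorly resolved.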
